A study of Mus musculus with 8 samples.

Results

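The m6A peaks of 10 genes of the TGF-beta and BMP pathway were followed in mouse embryonic fibroblasts (MEFs) with and without nutrient starvation. The genes were the type I receptors Tgfbr1, Acvr1 and Bmpr1a, the type II receptors Tgfbr2 and Bmpr2, the co-receptor Tgfbr3, the effector Smads Smad2 and Smad3, and the inhibitory Smads Smad6 and Smad7. Peaks belonged to a gene when the authors' lists named it. This gave 83 of the 38705 peaks in 4 lists, and 10 of the 9779 genes with any peak. N6-methyladenosine (m6A) is a methyl mark on adenosines of mRNA. In MeRIP-seq, RNA fragments that carry it are pulled down with an antibody (IP) and sequenced beside an input library.

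The cells were wild type C57BL/6 MEFs, isolated at 13.5 days post-coitum and used at passage 5 to 6. Control cells were untreated, and starved cells were kept for 2 h in nutrient-deprived medium. Each group had 2 IP libraries and 2 input libraries, 8 samples in all, and each IP library had its own peak list. The study took the replicates as biological, but the labels do not tie them to separate embryos or cultures, so the spread between them may be partly technical. The lists held 10103 and 9871 peaks in control against 9757 and 8974 peaks after starvation. Of 12 fibroblast markers, 9 had a peak in some library, with none for Col1a1, Vim or Twist2. Epithelial (3 of 5: Krt8, Krt18 and Krt19), endothelial (2 of 4: Kdr and Tek), blood (1 of 4: Cd68) and pluripotent (1 of 3: Sox2) markers also had peaks. Epcam, Cdh1, Pecam1, Cdh5, Ptprc, Adgre1, Csf1r, Pou5f1 and Nanog had none. A peak in all 4 libraries was found for 4 of the 12 fibroblast markers and for Sox2, and for no other marker. A peak shows that a transcript was present, but a missing peak does not show that it was absent. The files give no reads, so the depth of each library is unknown, and a lower amount of RNA and less m6A per RNA cannot be told apart.

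TGF-beta and BMP ligands bind a complex of type II and type I receptor kinases at the cell surface. The type II receptor phosphorylates the type I receptor, which phosphorylates effector Smads that enter the nucleus with Smad4. Smad2 and Smad3 carry TGF-beta and activin signals. Smad6 and Smad7 are induced by the pathway and block it, Smad6 mainly on the BMP side and Smad7 on both sides. In fibroblasts the pathway is best known for driving matrix production.

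Overlapping peaks of the 4 lists were merged, which put the 83 peaks into 41 regions (numbered along each chromosome, builds mm10 and GRCm38). None of these regions held a peak named for another gene. GGAC, the common core of m6A sites, was looked for on the transcribed strand in the transcript sequences of GENCODE M21. The sites below are the GGAC nearest to the centre of the strongest peak, with 8 bases on either side. They are shown for regions called in all 4 libraries and for the 3 Smad6 regions with a coding or 5′ UTR peak, since Smad6 was the only member without a peak in 1 of the libraries. The Smad6 region in the 3′ UTR, called in control IP replicate 1 alone, is left out. Capitals mark GGAC, and a match does not show which adenosine is methylated. Sites of Smad2 and Smad7 are not shown.
Tgfbr2 coding sequence, minus strand, chr9:116109874-116109893: acagagaaGGACatcttctc
Acvr1 coding sequence, minus strand, chr2:58462962-58462981: gatatttgGGACccaaggga
Bmpr1a 3′ UTR, minus strand, chr14:34414328-34414347: ttatatatGGACagctttgt
Smad3 3′ UTR, minus strand, chr9:63648768-63648787: tggtctgtGGACtgctgctt
Smad6 5′ UTR, minus strand, chr9:64021644-64021663: agcgcccgGGACctgagacg
Smad6 first coding exon, minus strand, chr9:64020600-64020619: gcgccccgGGACtctggcga
Smad6 last coding exon, minus strand, chr9:63953979-63953998: ggagcaccGGACacgcgtgg
The Tgfbr2 site lay 3 nt from the centre of its peak and the Smad3 site 107 nt from it. In windows of 200 nt of spliced transcript at the strongest peak, GGAC was present in 23 of the 41 regions (56.1%). It was present in 12355 of the 19876 windows that could be placed over all genes (62.2%). The longer GGACT, which contains GGAC, was present in 7 of the 41 (17.1%) and in 25.6% over all genes.

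Of the 10 genes, 9 had a peak in all 4 libraries, against 29.2% of all genes with any peak. Smad6 was the exception, with 0 peaks in starved IP replicate 2. The members were chosen with earlier results of these data known, so this contrast with all genes was not tested. The members had 2 to 6 regions each (median 4), and the other genes had a median of 2. Their transcripts were longer, with a median of 5856 nt against 3310 nt. Per kilobase of transcript the medians were 0.657 and 0.568 regions.

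The lists named a member in 26 and 21 peaks in control and in 22 and 14 peaks in starved libraries. The mean was 23.5 ± 3.54 in control and 18 ± 5.66 in starved cells (SD, n = 2 each). Starved IP replicate 1 lay between the control libraries, so the groups overlapped. The difference of -5.5 peaks was no larger than the spread of the starved libraries. It was -1.5 without starved IP replicate 2, -3 without control IP replicate 1, -8 without control IP replicate 2 and -9.5 without starved IP replicate 1. The mean change was -23.4% for the members and -6.22% for the whole lists. With the best 8974 peaks of each library the members' difference was -2 peaks.

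**Figure D1:**
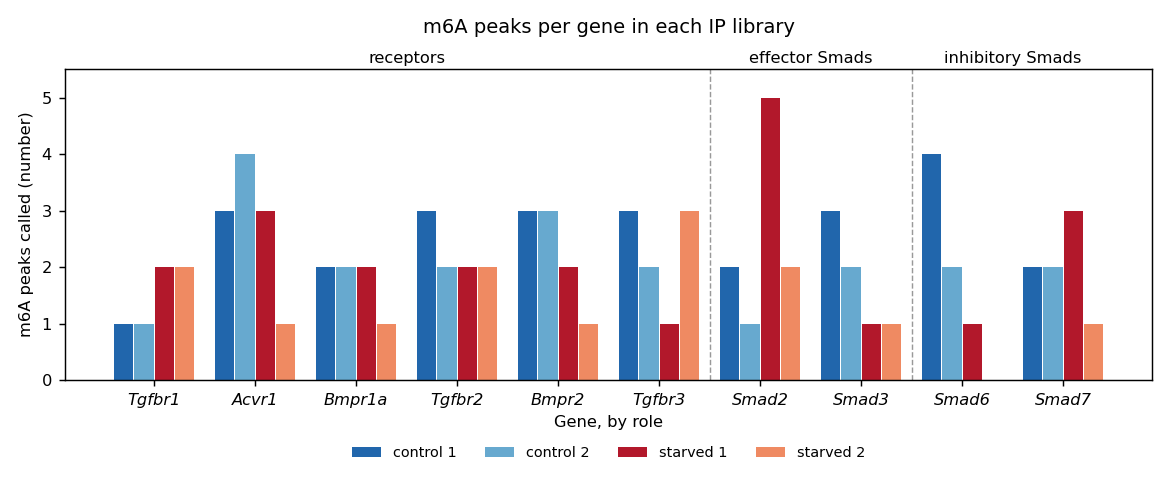
Number of m6A peaks (vertical axis) named for each of the 10 genes in the 2 control (blue) and 2 starved (red) IP libraries, ordered by role. Smad6 had 4 and 2 peaks in control against 1 and 0 after starvation, while Tgfbr1 had 1 and 1 against 2 and 2. The second Tgfbr1 peaks of the starved libraries lay in different regions.

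By role, the receptors gave 15 and 14 peaks in control against 12 and 10 after starvation, so these counts did not overlap. Nor did the whole lists, with 10103 and 9871 peaks in control against 9757 and 8974 after starvation. The mean change was -24.1% for the receptors and -6.22% for the whole lists. With 8974 peaks per library the receptors' difference went from -3.5 to -2 peaks. The effector Smads gave 5 and 3 peaks in control against 6 and 3 after starvation, which overlapped. The inhibitory Smads gave 6 and 4 peaks in control against 4 and 1 after starvation, which met at 4. With 8974 peaks per library their difference went from -2.5 to -1. Gene by gene, both control counts exceeded both starved counts for Bmpr2, Smad3 and Smad6. This order held for 7.56% of all genes with a peak. Genes other than the members had fewer regions each, with a median of 2 against 4. For Smad3, each control library had 2 peaks in the 3′ UTR region, where each starved library had 1 peak of higher fold. Only Tgfbr1 among the 10 had both starved counts above both control counts, an order that held for 5.42% of all genes. Its starved libraries shared 1 region, and the second peak of each lay in a region called in no other library. With 2 libraries per group the exact permutation test used here cannot reach 0.05, since its smallest two-sided p is 0.333.

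Fold enrichment, the deposited ratio of IP over input at a peak, was lower for the members than for all genes. On the log2 scale the median over the members' peaks was 3.21 and 3.15 in control against 3.34 and 3.30 after starvation. Over all peaks it was 3.61 and 3.62 in control against 3.87 and 3.88 after starvation. Both starved medians of the members were thus higher, by 0.14 on average, against 0.26 for all peaks. When each library was centred on its median over the regions called everywhere, which were themselves higher by 0.21 in starved cells, the members' difference was -0.07. Within the roles the medians of the replicates lay far apart. For receptors they were 3.12 and 2.63 in control against 3.21 and 2.00 after starvation.

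A region was called in all 4 libraries in 5 of 41 cases (12.2%), against 10.7% of all 21168 merged regions of the series. These were 1 region each of Tgfbr2, Acvr1, Bmpr1a, Smad2 and Smad3, and none of the inhibitory Smads. A peak in a single library made up 20 of the 41 (48.8%, against 56.2% of all regions). Of the 8 regions with 3 libraries, 4 were missing only from starved IP replicate 2, the shortest list. This combination held 9.76% of the members' regions and 3.60% of all regions. In only 1 of the 5 shared regions, that of Smad3, were both starved folds above both control folds (22.9% of the 2257 such regions in the series). The opposite order was found in 0 of the 5 (18.0% in the series).

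**Figure D2:**
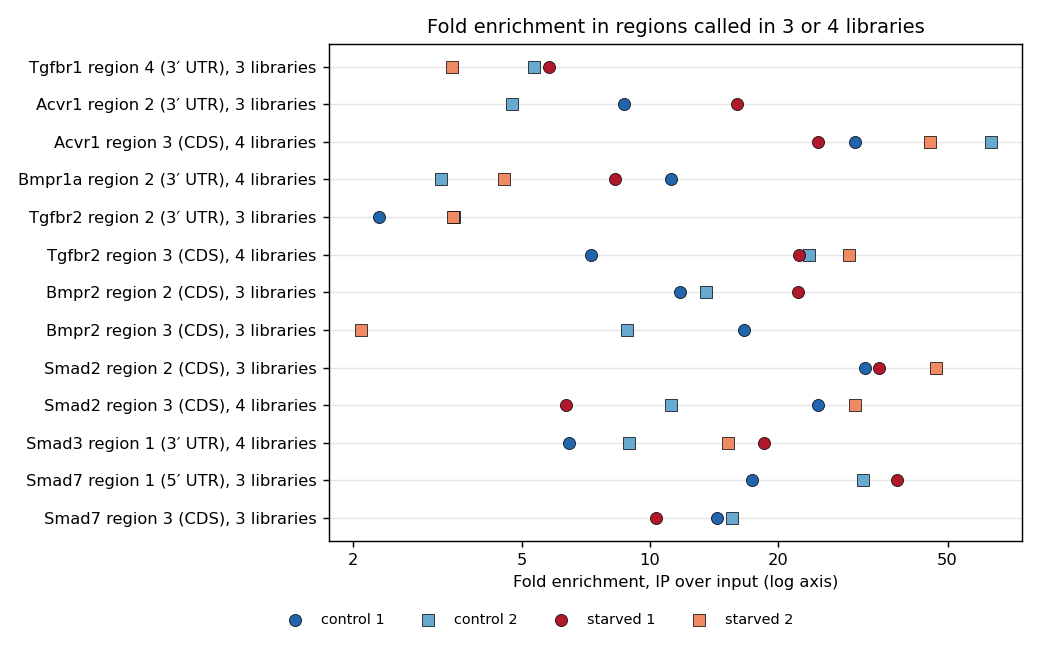
Fold enrichment of IP over input (horizontal log axis) in the 13 member regions called in 3 or 4 libraries, with 1 point per library and no point where no peak was called. In Smad3 region 1 both starved points lie right of both control points, while the points of the groups mix in the other 4 regions called everywhere.

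Tgfbr2 encodes the type II receptor that binds TGF-beta. Its strongest region lay in coding exon 5 of 8, on chromosome 9 from 116109504 to 116110269. All 4 peaks there shared an edge at 116109504. Fold enrichment was 7.28 and 23.63 in control against 22.41 and 29.3 after starvation. Control IP replicate 1 was low, and control IP replicate 2 lay between the starved values. The mean log2 fold was 3.71 in control and 4.68 in starved cells, a difference of 0.97 (exact permutation test, two-sided p 0.667 with 2 libraries per group). Without control IP replicate 1 this difference was 0.12, and without control IP replicate 2 it was 1.82. A weak Tgfbr2 region near the stop codon and in the 3′ UTR (116089421 to 116090557) had folds of 2.31 and 3.47 in control libraries and 3.45 in starved IP replicate 2. The peaks of control IP replicate 1 and starved IP replicate 2 there did not overlap each other and were joined by the longer peak of control IP replicate 2.

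Acvr1, a type I receptor for BMPs and activins, held the highest fold of any member peak (63.24, in control IP replicate 2). The region in coding exon 10 of 13 (chromosome 2, 58462881 to 58463156) had folds of 30.27 and 63.24 in control against 24.76 and 45.37 after starvation. High and low values occurred in both groups. The log2 difference was -0.38 (exact permutation test, two-sided p 0.667 with 2 libraries per group), and it was 0.15 without control IP replicate 2 and 0.05 without starved IP replicate 1. Around the Acvr1 stop codon and in the 3′ UTR a further region (58446902 to 58447673) had highest folds of 8.68 and 4.75 in control libraries and 15.98 in starved IP replicate 1. A chain of 4 peaks made up this region. In control IP replicate 1 the fold of 8.68 came from a peak 228 to 637 nt after the end of the stop codon. The peak of that library over the stop codon (-134 to 107 nt) had a fold of 5.04. The region was not called in starved IP replicate 2. Single-library peaks lay in Acvr1 coding exon 7 (starved IP replicate 1, fold 20.53) and in the 5′ UTR (control IP replicate 2, fold 19.02).

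Bmpr1a, a type I BMP receptor, had a region from the end of its coding sequence into the 3′ UTR (chromosome 14, 34413959 to 34414669). The folds were 11.22 and 3.22 in control against 8.29 and 4.53 after starvation. Both starved values lay between the control values. The log2 difference was 0.03 (exact permutation test, two-sided p 1 with 2 libraries per group), but -0.87 without control IP replicate 2 and 0.93 without control IP replicate 1. A coding region of Bmpr1a in exon 10 was called in control IP replicate 2 (7.17) and starved IP replicate 1 (4.73).

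Bmpr2, the type II BMP receptor with a long cytoplasmic tail, had the longest transcript of the 10 (12899 nt). Region 2 in exon 12 (chromosome 1, 59867343 to 59868615) had folds of 11.76 and 13.53 in control libraries and 22.28 in starved IP replicate 1. Region 3 in exon 13 (59870235 to 59870482) had folds of 16.64 and 8.85 in control libraries and 2.09 in starved IP replicate 2. Each of them was thus called in both control libraries and in a different starved library. The intron of 1619 bp between them is spliced out, and on the transcript 0 nt separated them. Taken along the mRNA, every library had a peak in this last part of the Bmpr2 coding sequence, and the score of the peak in starved IP replicate 2 was low (100.5, minus 10 times log10 of p). The 3 other regions of Bmpr2 had a peak in a single library each, with folds from 2.34 to 8.64.

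Tgfbr1, the type I receptor for TGF-beta, had peaks of at most 12.79-fold. Its only region in more than a single library lay 3329 nt after the stop codon (chromosome 4, 47413916 to 47414297). Its folds were 5.35 in control IP replicate 2 and 5.8 and 3.42 in starved libraries. The scores of these peaks were 109.49, 243.62 and 51.16, with false discovery rates of 50.16%, 34.71% and 83.03%. Control IP replicate 1 instead had a Tgfbr1 peak at the stop codon, with a fold of 10.14. The second peak of starved IP replicate 1 lay elsewhere in the 3′ UTR (fold 2.9, false discovery rate 71.94%). That of starved IP replicate 2 lay in the 5′ UTR (fold 12.79, false discovery rate 36.29%).

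Tgfbr3, or betaglycan, is a co-receptor that presents TGF-beta to the type II receptor. It had 6 regions and none was called in more than 2 libraries. A 3′ UTR region (chromosome 5, 107107610 to 107108588) had folds of 5.87 and 16.26 in the control libraries and no peak in either starved library. Another 3′ UTR region of Tgfbr3, from 107106570 to 107107157, was called in the second replicate of each group, with folds of 4.76 and 3.51. The highest Tgfbr3 fold, 31.03, was a peak of control IP replicate 1 alone, and its centre lay in an exon of a shorter transcript.

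**Figure D3:**
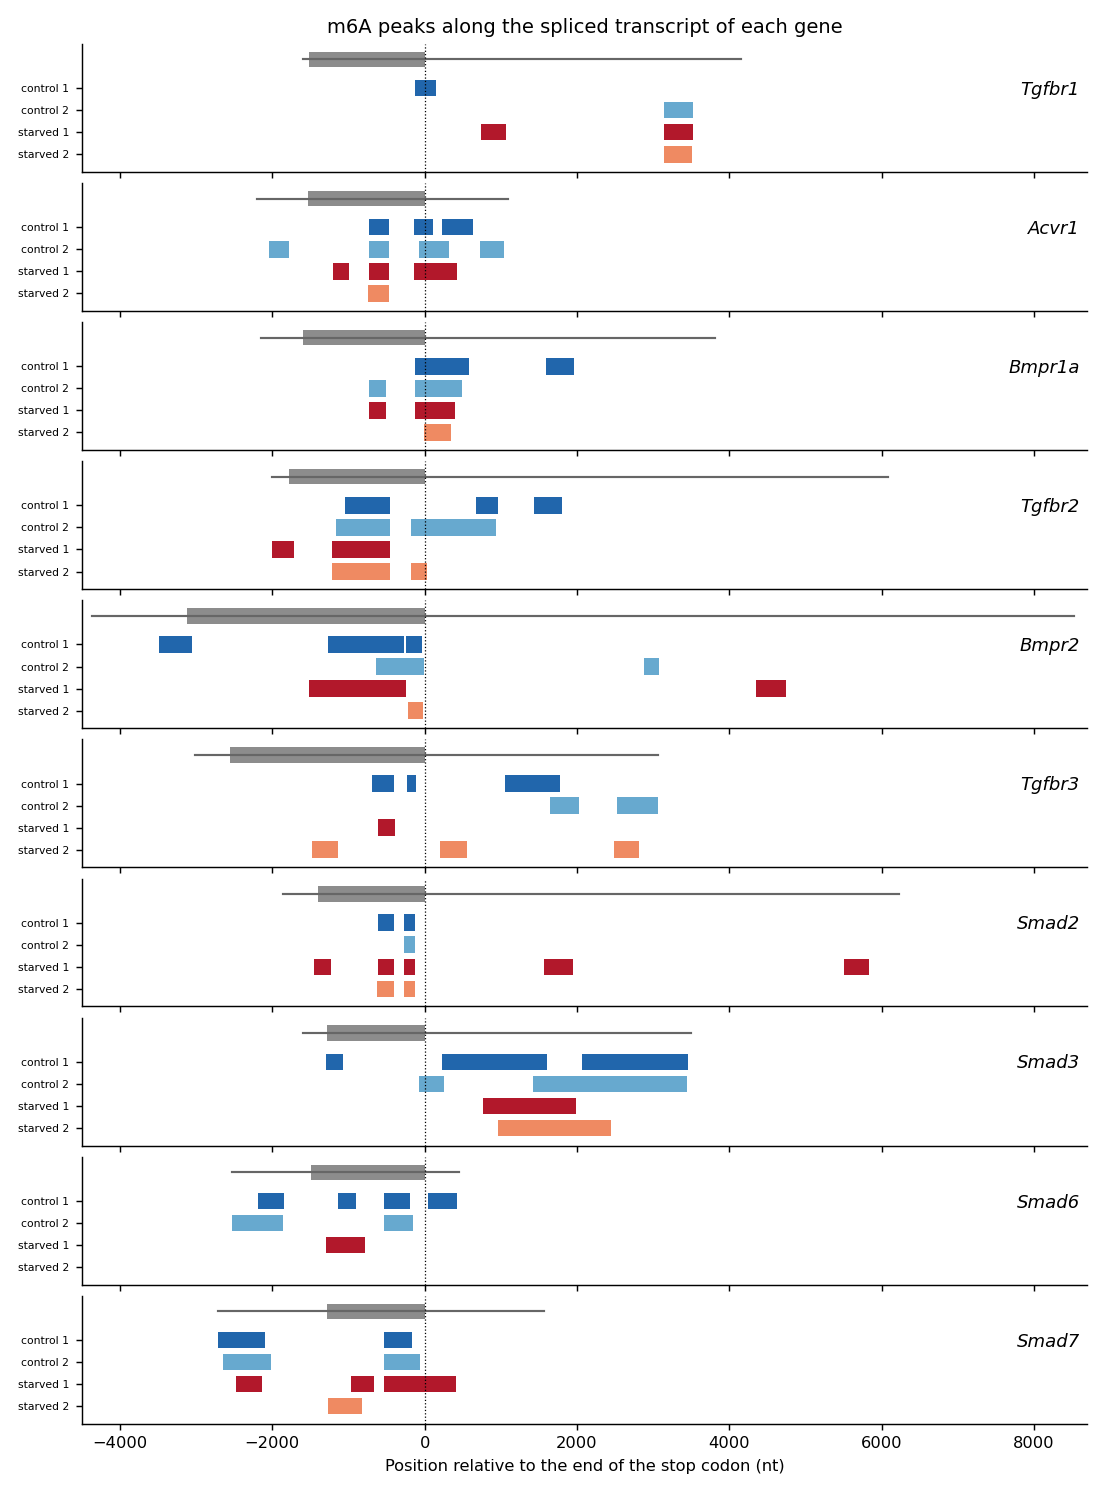
Position of the members' peaks along 1 coding transcript per gene, in nt from the end of the stop codon (horizontal axis), with 1 track per library, the coding sequence as a grey box and the UTRs as lines. 82 of the 83 peaks overlap the transcript drawn. Smad6 and Smad7 peaks lie mostly before the stop codon, whereas the Smad3 peaks called in all libraries lie in the 3′ UTR.

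Among the effector Smads, Smad3 was the only member whose groups did not overlap in a region called everywhere. Its region covered most of the 3′ UTR (chromosome 9, 63646800 to 63650335). The highest fold per library was 6.44 and 8.92 in control against 18.48 and 15.28 after starvation. Mean log2 folds were 2.92 in control and 4.07 in starved cells, a difference of 1.15 (exact permutation test, two-sided p 0.333 with 2 libraries per group, the smallest possible). Leaving out any library kept it between 0.91 and 1.38, and after centring on library medians it was 0.94. The region was a chain of 6 peaks, 2 in each control library and 1 in each starved library. The 4 libraries shared a stretch of 190 bp, from 63648652 to 63648841. The peaks over that stretch had folds of 5.84 and 8.92 in control against 18.48 and 15.28 after starvation. Their scores were 181.3 and 169.24 in control against 3100, the upper limit of most scores, and 3097.78 in starved libraries. The GGAC site printed for Smad3 lies within the shared stretch. Control IP replicate 1 also had a Smad3 peak in coding exon 1, with a fold of 18.9 and a score of 770.58. No other library had a peak there. Smad3 thus had 3 and 2 peaks in control against 1 and 1 after starvation. The higher starved folds apply to the 3′ UTR region alone.

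Smad2, the other effector, had its strongest peaks in the coding sequence. Region 3 in exon 10 (chromosome 18, 76302383 to 76302642) had folds of 24.75 and 11.2 in control against 6.35 and 30.24 after starvation. The starved values lay on either side of both control values. The log2 difference was -0.26 (exact permutation test, two-sided p 1 with 2 libraries per group), and it ranged from -1.39 without starved IP replicate 2 to 0.86 without starved IP replicate 1. Region 2 in exon 8 had folds of 32.05 in control IP replicate 1 and 34.43 and 46.87 in starved libraries, each at a score of 3100. It had no peak in control IP replicate 2. Starved IP replicate 1 had 3 further Smad2 peaks, with folds from 5.69 to 9.85, in regions that no other library shared.

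Smad6 and Smad7 had no region called in all 4 libraries. In Smad6, 2 regions were called in both controls and absent from the starved lists. The first, in the last coding exon (chromosome 9, 63953681 to 63954056), had folds of 4.69 and 9.36. The second, in the 5′ UTR (64021387 to 64022059), had folds of 3.05 and 6.53. Peaks of the 5′ UTR were weak, with scores of 59.58 and 68.43 and false discovery rates of 80.68% and 64.72%. In the last coding exon the peak of control IP replicate 1 was also weak (score 85.68, false discovery rate 68.79%), and that of control IP replicate 2 had a score of 436.77. Another Smad6 region, in the coding part of exon 1 (64020320 to 64020835), went the other way between libraries. It had a fold of 5.73 in control IP replicate 1 and 40.16 at a score of 3100 in starved IP replicate 1. It was not called in the second replicate of either group.

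The only member region that both starved lists held and both control lists lacked was in Smad7. It lay in the coding part of exon 1 (chromosome 18, 75368968 to 75369568), with folds of 23.98 and 11.58. The peaks of the starved libraries overlapped there by less than 0.5 of the shorter peak, so under that stricter rule the region was split. The 5′ UTR region of Smad7 (75367365 to 75368223) had folds of 17.4 and 31.67 in control libraries and 38.11 in starved IP replicate 1. In the last exon (75393827 to 75394771) the folds were 14.35 and 15.55 in control libraries and 10.32 in starved IP replicate 1. Neither of these was called in starved IP replicate 2, whose only Smad7 peak was that in coding exon 1.

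Over the whole family, 3 of 41 regions (2 of Smad6 and 1 of Tgfbr3) were called in both control libraries only, a share of 7.32% beside 4.15% of all regions in the series. The reverse pattern held for 1 region (2.44%, against 3.20% in the series). With peaks of a score of at least 100 only, or with 8974 peaks per library, the control-only count was 1. At that score limit the region left was that of Tgfbr3 (scores of 275.69 and 855.33), and both Smad6 regions dropped out. Under the stricter overlap rule given above for Smad7, the control-only count was 2, and the Tgfbr3 region was split. Its peaks ran from 107107866 to 107108588 in control IP replicate 1 and from 107107610 to 107107989 in control IP replicate 2. Without these settings the inhibitory Smads supplied 3 of the 4 regions with either pattern, while holding 7 of the 41. Each of the 4 was lost under some setting: those of Smad6 at the score limit, and those of Smad7 and Tgfbr3 under the overlap rule.

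The place of the regions on the transcript is given by role without a test. Of the 7 inhibitory Smad regions, 4 were coding, 2 were in the 5′ UTR and 1 was in the 3′ UTR. The receptors had 13 of 27 regions in the 3′ UTR, 8 coding regions, 4 in the 5′ UTR and 2 within 100 nt of the stop codon. Of these 2, that of Tgfbr3 was placed on a shorter transcript. On the transcript drawn, its peak ran from -226 to -119 nt relative to the stop codon, in the coding sequence. The Tgfbr1 region in the 5′ UTR was also placed on another transcript than the one drawn. The effector Smads had 4 of 7 in the coding sequence and 3 in the 3′ UTR. Over all members 4.88% of regions fell within 100 nt of the stop codon, against 12.4% of the 19876 placed regions of the series. The 5′ UTR held 14.6% of the members' regions and 5.95% of all. The Smad6 and Smad7 coding sequences are also followed by short 3′ UTRs, of 448 and 1570 nt, against 3069 to 8529 nt in the other members except Acvr1 (1098 nt).

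**Figure D4:**
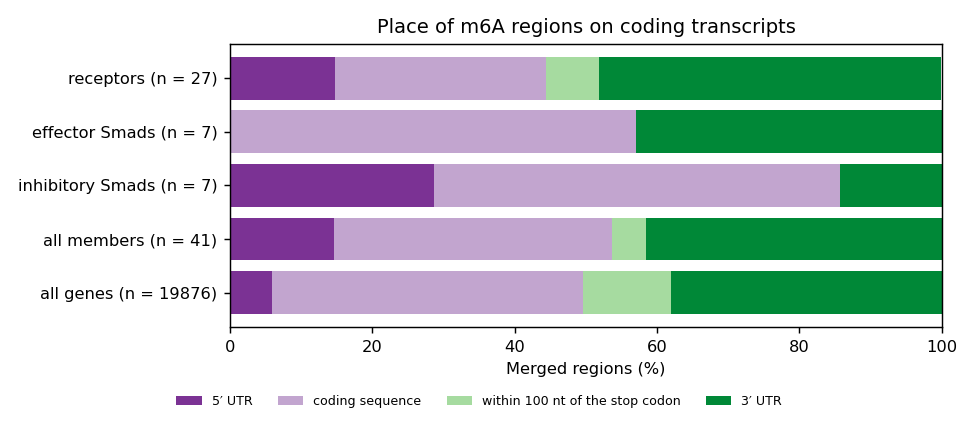
Share of merged regions (horizontal axis, percent) by the place of the strongest peak's centre on a coding transcript, for each role, all 10 genes and all genes of the series. The 3′ UTR takes 48.1% of receptor regions and 14.3% of the 7 inhibitory Smad regions.

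The rest of the pathway was described from 98 further genes (ligands, latency proteins, antagonists, other receptors and Smads, Smad partners and target genes). Of these, 76 had a peak in some library and 37 of the 76 in all 4 (29.2% in the series), with 209 regions in all. 9 regions (4.31%, against 3.20% in the series) were called in both starved libraries only. 4 regions (1.91%, against 4.15%) were called in both control libraries only. The list of latency proteins, named for the storage and release of latent TGF-beta, held 4 of the 9, in Lrrc32 (2 regions), Ltbp1 and Ltbp2. These were 4 of its 26 regions (15.4%, against 3.20% in the series), and the share was not tested. The latency list also held 2 coding regions of Thbs1, called everywhere, with both control folds higher. Their folds were 19.57 and 17.15 in control against 14.21 and 14.9 after starvation, and 20.81 and 22.83 against 10.92 and 16.72. Lrrc32 folds were 10.26 and 9.25 around the stop codon and 13.15 and 7.81 in the 3′ UTR. Ltbp1 had folds of 9.86 and 6.57. Ltbp2 had 4.13 and 39.7, in a region outside the coding exons of the annotation.

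The other starved-only regions were in the antagonist Fstl1 (6.37 and 8.18), the receptor Bmpr1b (16.2 and 22.4), the Smad phosphatase Ppm1a (9.41 and 11.77), the ubiquitin ligase Smurf1 (3.87 and 4.16) and the matrix gene Fn1 (3.57 and 5.69). The control-only regions were in the ligand gene Inhbb (23.25 and 6.93), the BMP modulator Bmper (27.13 and 12.76), the pseudoreceptor Bambi (6.28 and 78.48) and the repressor Tgif1 (6.42 and 5.18). Of the 38 pathway regions called in all 4 libraries, both starved folds were higher in 7 (22.9% of such regions in the series) and both control folds in 7 (18.0%). The 4 other Smads (Smad1, Smad4, Smad5 and Smad9) had 12 regions, and 0 of them had any of these patterns.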

How the data were processed

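According to the labels and methods, MEF mRNA was immunoprecipitated for m6A and made into directional libraries. Reads were trimmed (Cutadapt) and mapped to mm10 (HISAT2 2.0.4) by the authors, who called peaks with MACS2 in each IP library against its input, and kept peaks on mRNA exons. The deposited fold enrichment is the peak caller's ratio of IP over input. The deposited score is minus 10 times log10 of the peak's p-value, mostly limited at 3100, and the authors' false discovery rate is a percent. The lowest such rate in any of the 4 lists was 5.56%. The authors' own table of differential sites (fold changes, p-values, directions) was not used.

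Peaks were taken by gene name and merged over the 4 lists at 1 bp of overlap, and the highest fold of a library stood for a region. Starts were raised by 1, which put 11548 of them on exon starts, against 120 as deposited. Strongest peaks (highest score) were placed by their centre on GENCODE M21 coding transcripts (longest coding sequence first). Regions called in all 4 libraries were tested between groups by exact permutation of the libraries (two-sided). The members, roles and pathway list were chosen with earlier results of these data known. Named were all members and the pathway genes with a region in both libraries of 1 group only. Python 3.11.15, numpy 2.4.6, pandas 2.3.3 and matplotlib 3.10.9 were used. Merging, library patterns, transcript positions and the exact test were tried on simulated data and small made-up cases, and 14 of 14 quantities were recovered. Simulated regions held at most 1 peak per library, and these always overlapped. Chained or split regions, the places on the transcript and the GGAC windows were therefore not covered.

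Other settings for overlap, fold, score, list length, gene assignment and scaling were tried, and each library was left out in turn. The inputs entered only through the peak calling. Depth is unknown, so no counting error could be given.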

Additional observations from a re-analysis of the deposited data

How the results depend on the processing

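Depth could not be checked. The members' peak difference (-5.5) was -2 with equal list lengths. Choosing peaks by exon overlap instead of gene name left it at -5.5, with 41 regions. Counts of regions and the peak difference kept within 1.5 times or 1 SD under most settings that kept all 4 libraries. The exceptions were the count in both starved libraries only, 0 with an overlap of at least 0.5 of the shorter peak (main value 1), and the count in both control libraries only, 1 with a score of at least 100 and 1 with equal list lengths (main value 3). The members' difference in median log2 fold (0.14) was 0.54 for peaks of at least 5-fold, 0.24 for scores of at least 100, 0.03 with equal list lengths and -0.07 after centring on library medians.

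Leaving out 1 library at a time gave 6 to 9 regions called in all remaining libraries, 2 to 8 in the starved libraries only, 5 to 11 in the control libraries only, 2 to 4 with the starved folds above and 1 to 3 with the control folds above. Single regions changed sign in this way for Acvr1 (-0.92 to 0.15), Bmpr1a (-0.87 to 0.93) and Smad2 (-1.39 to 0.86), and centring changed Bmpr1a to -0.18. Smad3 and Tgfbr2 kept their direction under every setting run.

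With the replicate number as a block (replicate block), the paired difference was -5.5 peaks and 0.14 in median log2 fold, as without it, and the smallest p for Smad3 was then 0.5. The replicates share only a number: over 2257 regions the differences between replicates 1 and 2 in control and starved cells had a correlation of -0.0173.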
